A study of Vitis vinifera with 171 samples.

Results

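The water channel and membrane transporter genes of the grapevine berry were taken from the gene lists that accompany the study. A gene was a member if its printed annotation held the word aquaporin, intrinsic protein, ABC transporter, MATE, potassium, nitrate transporter, amino acid transporter or peptide transporter, in upper or lower case, and neither sugar nor hexose. Of 3577 annotated genes 21 met these words. Among them 11 were annotated as transport proteins and 3 as glutamate receptors, which are ion channels but were caught by the letters "mate" inside glutamate. The other 7 were caught by the same letters in shikimate, maternal, glutamate synthase or glutamate and are no transporters. The set described here is the 14 channel and transporter genes, and all 14 were found among the 29545 probe sets of the array. The words nitrate transporter, amino acid transporter and intrinsic protein added no gene, and no aquaporin beyond PIP2B and TIP3;1 was listed.

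The name of the set is loose for a pair of its members. ABCF2 belongs to a class of ABC proteins that lack the membrane-spanning part, and in yeast its relatives act on ribosomes. The gene annotated as a potassium channel tetramerisation domain protein (KCTD here) holds a protein-protein contact domain first seen in potassium channels and is not a channel itself.

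Aquaporins are pores that let water cross membranes, PIP proteins in the plasma membrane and TIP proteins in the membrane of the vacuole. ABC proteins use ATP to move lipids, hormones and defence compounds, MATE proteins exchange a substrate for protons or sodium, and oligopeptide transporters carry short peptides, modified peptides and metal chelates. At veraison the berry softens, colours and starts to fill with sugar, and the entry of water moves from the xylem towards the phloem, so that transport across membranes changes with it.

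The series holds 171 single-colour NimbleGen arrays of RNA from berries without seeds of Vitis vinifera cv Corvina clone 48, grown in open vineyards around Verona. Berries were collected at 3 stages, veraison, mid-ripening and harvest, with 3 biological replicates of each. In 2006 and 2007 there were 36 arrays each from 4 vineyards (AM, CS, MN and PSP), and in 2008 there were 99 arrays from 11 vineyards, the same 4 and BA, BM, CC, FA, GIV, PM and VM. The 11 vineyards lay in 3 macro-areas, Bardolino (BA, CS, GIV, VM), Valpolicella (BM, FA, MN, PSP) and Soave (AM, CC, PM). All samples share the fruiting clone, but the study lists different rootstock types, so the vineyards differ in site, management and rootstock. The study describes the spring of 2007 as unusually warm. No treatment was applied. The 3 replicates of a group come from the same vineyard and collection, so each value is the mean of 3 arrays. The vineyard is the unit of the tests of stages, years and areas. For stages and years the p-values measure how the differences vary between vineyards, and for areas the spread between vineyards. For the test of the 11 vineyards they measure how a vineyard varies over its stages.

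Values are log2 of the mean probe intensity, so a difference of 1 is a factor of 2. They compare samples for 1 gene and do not rank genes. Random control probes gave a background level whose 95th percentile was 6.91 in the median array, with a range of 5.17 to 9.42. Depending on the array, 49.3% to 97.0% of probe sets lay above that array's level. Replicate arrays correlated at 0.937 or more, with a median of 0.985. Berry markers were checked, and MN at veraison in 2007 stood apart: VvMYBA1, the regulator of anthocyanin colour, was at 4.95 there, while the 4 vineyards had a median of 9.20 and a highest value of 9.56. The ripening gene grip22 was at 6.78 in the same berries against a highest value of 13.83. Differences that use veraison of 2007 are therefore given with and without MN for the members tested there. In RNA from berry tissue, a change in the share of a cell type and a change in the RNA per cell cannot be told apart.

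Seeds were removed before extraction, and 6 of 6 seed markers on a fixed list were found on the array. Legumin rose from veraison to harvest by 3.72 in 2008, 3.21 in 2006 and 2.75 in 2007. The study listed it for its rise in 2008, and its probe set was assigned by stage levels and place on the array. A globulin-like gene was higher at harvest by 1.22 in 2008, 1.60 in 2006 and 0.21 in 2007. It was listed for a difference between years after division by veraison. The 2008 rise of legumin and all 3 values of the globulin-like gene are therefore descriptions. The other 4 markers, a dehydrin, steroleosin-B and a pair annotated PM23, differed by -0.28 to 0.04 between these stages in the 3 years. Of these steroleosin-B fell in 2008 and 2006 and a PM23 gene in 2008. Steroleosin-B was listed for vineyard differences in 2008, so its fall of that year is a description. None of the 6 was at 0. The summed seed level adds the intensities of the markers, and the dehydrin, with a median of 15.2 over all arrays, makes up most of it. The study listed that dehydrin as constitutive in 2008, so a level sum does not show that seed RNA was level. The summed seed level of the vineyard means ranged from 15.54 to 15.81 at veraison and from 15.59 to 16.02 at harvest in 2008. In 2006 these ranges were 15.59 to 15.73 and 15.74 to 15.86, and in 2007 they were 15.43 to 15.63 and 15.52 to 15.70. Their part in the changes described below was not tested.

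PIP2B, a plasma membrane aquaporin (VIT_06s0004g02850), fell furthest of the 14 genes from veraison to harvest in 2008 and 2006. It was listed by the study for its course in 2008, so the 2008 values are a description. In 2008 the vineyard means at veraison ran from 13.80 (CS) over a median of 13.89 to 14.39 (MN), at mid-ripening from 11.13 (GIV) over 12.72 to 13.49 (MN), and at harvest from 9.91 (VM) over 11.16 to 12.22 (MN). All 11 vineyards were lower at each step, the mean difference from veraison to harvest was -3.09, and the veraison and harvest groups did not overlap.

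The years that the list did not use gave the test. In 2006 the 4 vineyards AM, CS, MN and PSP stood at 14.78, 13.94, 14.32 and 14.06 at veraison, at 12.48, 11.95, 12.42 and 12.69 at mid-ripening, and at 11.89, 11.36, 11.43 and 10.84 at harvest. The stages did not overlap, and PIP2B fell by 2.90 from veraison to harvest (SE 0.19, 7.45-fold, adjusted p = 1.31e-05). The difference at mid-ripening was -1.89 (adjusted p = 0.000219), and a further fall to harvest (adjusted p = 0.0413) did not pass without any 1 of the 4 vineyards, with adjusted p from 0.0879 without AM to 0.155 without PSP.

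In 2007 PIP2B took another course. AM, CS, MN and PSP stood at 14.71, 13.92, 12.70 and 12.87 at veraison, at 12.91, 13.79, 14.05 and 14.06 at mid-ripening, and at 12.20, 11.93, 11.62 and 11.25 at harvest. MN and PSP were thus lower at veraison than at mid-ripening, while AM was highest at veraison. The fall from veraison to harvest was 1.80 (SE 0.44, adjusted p = 0.0153) and was present in 4 of 4 vineyards. It was -2.04 as a log2 difference without MN (adjusted p = 0.0342) and did not pass without CS (adjusted p = 0.0664). The difference between mid-ripening and veraison was 0.15 (SE 0.44, adjusted p = 0.849), and its sign turned without MN, at -0.25 (adjusted p = 0.801). The difference between harvest and mid-ripening was -1.95 (adjusted p = 0.0713). The latter was -3.01 and passed when the probes of the set were combined by median polish (adjusted p = 0.0235).

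The fall of PIP2B was larger in 2006 and 2008 than in 2007 by 0.99 (SE 0.23, adjusted p = 0.0368). Without MN that difference was 0.84 (adjusted p = 0.16), and it also did not pass without CS (adjusted p = 0.0954) or PSP (adjusted p = 0.144). The course of 2008, for which PIP2B was listed, enters this difference. At mid-ripening the values of all 4 vineyards were above the mean of the other years in 2007, by 1.13 (SE 0.28), which did not pass (adjusted p = 0.0568).

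On slides that held both stages of a vineyard, the change from veraison to harvest was -3.12 over 8 pairs in 2008, -2.93 over 2 pairs in 2006 and -2.22 over 2 pairs in 2007. All of these pairs fell. The 2 pairs of 2007 came from AM and CS. In PSP the 3 stages of 2007 lay on 3 separate slides, so stage and slide cannot be told apart there. From veraison to mid-ripening in 2007, 3 pairs of the other vineyards ran from -1.80 to 1.35, with 1 higher.

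TIP3;1 (VIT_03s0038g01390) belongs to a group of vacuolar aquaporins known from seeds of Arabidopsis. It was near or below background in most samples, with 19 of 171 arrays above the random probes. The highest values were those of veraison in 2008, where 13 of 33 arrays passed and vineyards ran from 5.69 (BA) over 6.75 to 7.84 (PM). At mid-ripening 1 of 33 arrays passed, and at harvest 0 of 33 did. The mean levels of 2008 were 6.68, 5.77 and 6.08 at the 3 stages, and 8 of 11 vineyards were lower at harvest than at veraison. No fold is given because the later values are not above background. Over 8 pairs on shared slides the mean difference was -0.32 with 3 pairs higher. In 2006 no array of any stage was above background. TIP3;1 was listed for a year difference at veraison, and the ripening contrasts share those veraison arrays, so its values are a description.

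**Figure D1:**
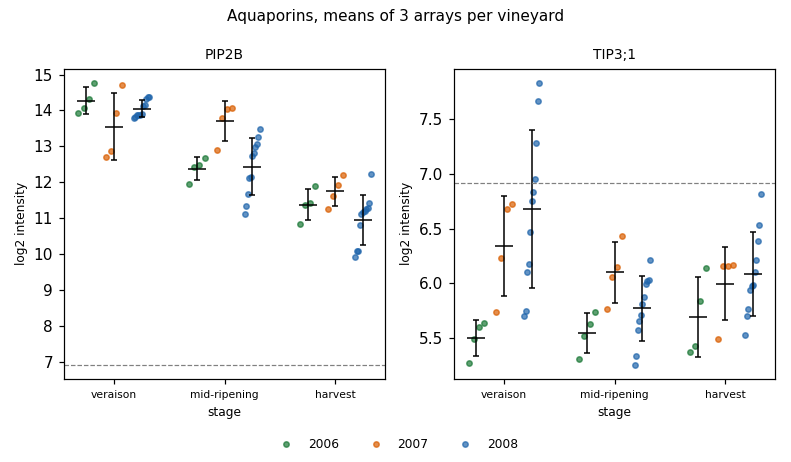
Log2 intensity of the aquaporins PIP2B and TIP3;1 at veraison, mid-ripening and harvest (x axis) in 2006 (4 vineyards), 2007 (4) and 2008 (11). Each point is the mean of 3 arrays of a vineyard, sorted by value within a group, black bars are the mean and SD over vineyards, and the dashed line is the background level of 6.91; PIP2B at harvest lies below veraison in every year and TIP3;1 lies around or below the background.

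The 5 ABC proteins had no common course. PDR7 and PDR12 belong to the full-size ABCG class known as pleiotropic drug resistance proteins, which export or import defence compounds and hormones across the plasma membrane. In Arabidopsis PDR12 takes up abscisic acid, a hormone that rises in the grape berry at veraison.

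PDR7 (VIT_09s0002g03640) rose with ripening in 2006 and 2007 and fell in 2008. At veraison AM, CS, MN and PSP were at 9.34, 8.76, 8.19 and 8.72 in 2006, at 8.96, 7.53, 7.94 and 8.09 in 2007, and at 11.05, 10.75, 10.13 and 10.99 in 2008. The 2008 values lay above all values of the other years. At harvest the same vineyards were at 10.44, 9.09, 9.80 and 9.08 in 2006, at 10.35, 9.11, 9.17 and 9.12 in 2007, and at 10.24, 9.85, 9.89 and 9.94 in 2008, so that the 3 years overlapped.

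From veraison to harvest PDR7 rose by 0.86 in 2006 (SE 0.21, adjusted p = 0.0107) and by 1.31 in 2007 (SE 0.18, adjusted p = 0.0013), each in 4 of 4 vineyards. The rise in 2006 did not pass without AM (adjusted p = 0.059), and that of 2007 was 1.34 without MN (adjusted p = 0.0106). In 2008 it fell by 0.60 (SE 0.14, adjusted p = 0.000594, 10 of 11 vineyards). The 2008 fall was steeper at mid-ripening, at 0.96 (adjusted p = 4.1e-06, 11 of 11 vineyards), and a rise of 0.36 followed to harvest (adjusted p = 0.0383, 8 of 11 vineyards). That rise did not pass without GIV (adjusted p = 0.0923), MN (0.0562), PM (0.0694), PSP (0.0723) or VM (0.101), nor without replicate C (0.0648). Pairs on shared slides gave 0.49, 1.31 and -0.51 for the change to harvest in 2006, 2007 and 2008.

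The year test at veraison passed as well. PDR7 was lower in 2007 than in the mean of 2006 and 2008 by 1.61 (SE 0.20, 3.05-fold, adjusted p = 0.0036), by 1.74 without MN (adjusted p = 0.0234). The values of 2006 and 2007 overlapped at veraison, and the high values of 2008 enter that mean. PDR7 was higher in 2008 than in 2006 by 1.98 (SE 0.23, 3.95-fold, adjusted p = 0.00555), and this did not pass without CS (adjusted p = 0.0694). The change from veraison to harvest was larger in 2007 than in the mean of 2006 and 2008 by 1.25 (adjusted p = 0.0179), and by 1.49 without MN (adjusted p = 0.0509). The adjusted p was 0.0512 without AM, 0.0779 without CS and 0.0879 without PSP. The rise of 2006 and the fall of 2008 stand on either side of 0, and the difference between these 2 years in ripening change was not tested.

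ABCG22 (VIT_06s0061g01490) is a half-size ABCG transporter whose Arabidopsis relative limits water loss through stomata. It was listed for a year difference at veraison, where AM, CS, MN and PSP were at 10.09, 9.54, 10.61 and 9.49 in 2006, at 11.12, 11.16, 11.45 and 10.61 in 2007, and at 8.29, 8.43, 9.10 and 8.74 in 2008. These values are the base of the list and carry no test, and neither do the changes from veraison, which share these arrays. The harvest arrays are separate.

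At harvest ABCG22 stood at 8.64, 8.40, 8.56 and 8.14 in 2006, at 8.91, 9.48, 8.02 and 6.79 in 2007, and at 7.32, 8.70, 9.00 and 8.86 in 2008 in the same order of vineyards. Above background were 10 of 12 harvest arrays in 2007 and 26 of 33 in 2008. The years overlapped, and 2007 differed from the mean of the others by -0.15 (SE 0.45, adjusted p = 0.848). The difference from veraison to harvest was -1.50 in 2006 and -2.79 in 2007, with 4 of 4 vineyards lower in each, and -0.30 in 2008, with 6 of 11 lower. From mid-ripening to harvest, which uses no veraison array, the difference was -0.54 in 2006 (SE 0.23, adjusted p = 0.248), -0.79 in 2007 (SE 0.38, adjusted p = 0.34) and 0.27 in 2008 (SE 0.18, adjusted p = 0.277), and none of these passed.

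Without MN the difference between harvest and veraison in 2007 was -2.57. The change in 2007 differed from the mean change of the other years by -1.95, and by -1.82 without MN. The same arrays gave a year difference of 1.80 at veraison and of -0.15 at harvest, so this value is made up mostly of the listed difference.

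PDR12 (VIT_09s0002g05490) was listed as a gene that rises in 2008. Its 2008 veraison means ran from 5.40 (VM) over 6.01 to 8.45 (PSP), with 11 of 33 arrays above background, and its harvest means ran from 7.50 (PM) over 9.66 to 11.72 (BM), with 30 of 33. Every vineyard was higher at harvest, by 3.33 in the mean. The groups overlapped, since the harvest values of PM and CC were below the veraison value of PSP. The difference between the stages ran from 1.40 in AM to 6.06 in BM. These are differences of measured values, and where arrays were not above background they do not give the size of the change.

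In 2006 AM, CS, MN and PSP went from 9.25, 8.95, 7.36 and 9.83 at veraison to 11.32, 10.52, 9.80 and 9.69 at mid-ripening and 10.28, 10.57, 10.03 and 9.35 at harvest. It rose to mid-ripening by 1.48 (SE 0.44, adjusted p = 0.0312, 3 of 4 vineyards), a call that did not pass without AM (adjusted p = 0.12), CS (0.122) or MN (0.105). The difference between harvest and veraison was 1.21 (adjusted p = 0.0511) in 2006 and 0.37 (adjusted p = 0.383) in 2007, where it was 0.65 without MN (adjusted p = 0.196). Without PSP, the vineyard that did not share its direction, the difference of 2006 was 1.77 (adjusted p = 0.00549). On shared slides the change to mid-ripening in 2006 was 1.19 over 4 pairs, with 3 higher. To harvest it was 0.20 over 2 pairs, with 1 higher. At mid-ripening PDR12 was lower in 2007 than in the other years by 1.53 (SE 0.26, 2.88-fold, adjusted p = 0.0264, 4 of 4 vineyards), and the difference was -1.71 without MN (adjusted p = 0.0316). Without AM, CS or PSP the adjusted p was 0.116, 0.192 and 0.0526. The probe set of PDR12 was assigned by its 3 printed stage levels and its place on the array, which is weaker than a match of profiles.

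ABCI9 (VIT_14s0060g00720) belongs to a plant class of ABC proteins related to bacterial subunits. It was lower at veraison in 2007, at 10.61, 9.57, 9.57 and 10.09 in AM, CS, MN and PSP, than in 2006 (10.88, 10.45, 10.26 and 10.80) and 2008 (11.56, 11.43, 11.19 and 11.40). The 2008 values lay above all others, and those of 2007 and 2006 overlapped. The difference of 2007 was -1.04 (SE 0.16, 2.05-fold, adjusted p = 0.00827), and it did not pass without MN (-0.999, adjusted p = 0.0526) or CS (-0.93, adjusted p = 0.0788).

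ABCI9 rose to harvest in 2007 by 0.67 (adjusted p = 0.0401, 3 of 4 vineyards), against 0.31 in 2006 (adjusted p = 0.179) and -0.05 in 2008 (adjusted p = 0.731). The rise in 2007 did not pass without MN (0.48, adjusted p = 0.178), CS (adjusted p = 0.146) or PSP (adjusted p = 0.114). Over 2 pairs on shared slides the change of ABCI9 in 2007 was 0.20, with 1 pair higher. At harvest its 2008 mean of 11.41 over 11 vineyards stood beside 10.91 in 2006 and 10.63 in 2007.

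ABCF2 (VIT_06s0061g00410), listed as constitutive in 2008, had nearly the same level in all years. Its means over vineyards lay between 14.59 and 14.85 in the 9 combinations of year and stage, and the median SD of 3 arrays was 0.07. In 2006 and 2007, which the list did not use, the changes to harvest were 0.09 (SE 0.08, adjusted p = 0.398) and 0.15 (SE 0.11, adjusted p = 0.339), the latter 0.16 without MN. The largest year difference was 0.20 at mid-ripening (SE 0.12, adjusted p = 0.333).

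**Figure D2:**
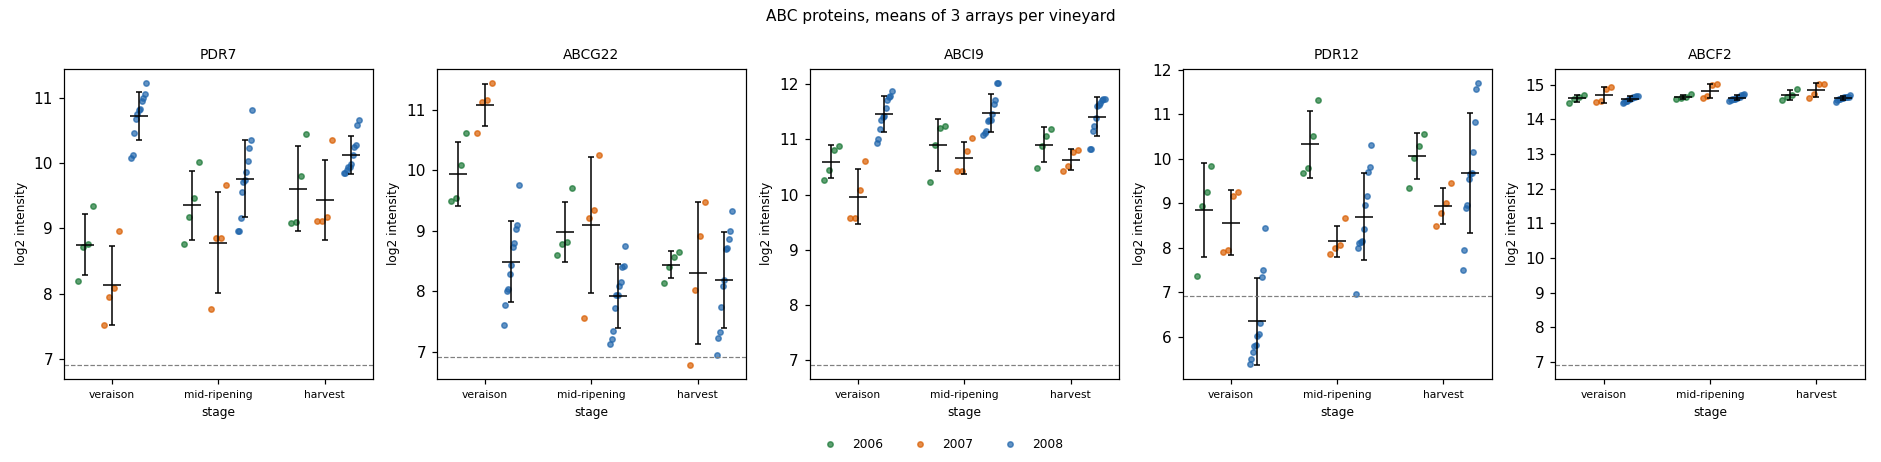
Log2 intensity of the ABC proteins PDR7, ABCG22, ABCI9, PDR12 and ABCF2 by stage (x axis) and year. Each point is the mean of 3 arrays of a vineyard (4 in 2006 and 2007, 11 in 2008), sorted by value within a group, black bars are the mean and SD over vineyards, the dashed line is the background level of 6.91 and the y axes differ; PDR7 at veraison of 2008 has a mean of 10.72 against 8.75 in 2006 and 8.13 in 2007.

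The MATE gene (VIT_03s0038g03200) encodes a multidrug and toxic compound extrusion protein. Other members of this family move anthocyanins into the vacuole of the berry, and the substrate of this one is not given in the sources used here. In 2008 its vineyard means at veraison ran from 10.38 (PM) over 10.94 to 11.65 (FA) and at harvest from 11.25 (MN) over 11.56 to 11.81 (GIV). It was listed for a year difference at veraison, so these values and all differences from veraison are a description. Harvest was above veraison by 0.58 in the mean and in 10 of 11 vineyards, and mid-ripening by 0.67. The step from mid-ripening to harvest did not pass in 2008 (-0.09, SE 0.12, adjusted p = 0.613), 2006 (0.20, SE 0.13, adjusted p = 0.462) or 2007 (0.08, SE 0.19, adjusted p = 0.887).

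In 2006 MATE went from 11.28, 11.36, 11.65 and 11.71 at veraison to 11.87, 12.10, 11.86 and 12.11 at harvest in AM, CS, MN and PSP, a difference of 0.49 with 4 of 4 vineyards higher. In 2007 the veraison values were 11.96, 12.40, 12.45 and 11.64, and the change to harvest was -0.12, or 0.10 without MN. The difference in ripening change between 2007 and the other years was -0.62, or -0.52 without MN. At harvest, on arrays the list did not use, 2007 differed from the other years by 0.27 (SE 0.15, adjusted p = 0.275).

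OPT1 (VIT_19s0015g00870), an oligopeptide transporter, was high where PIP2B was low, at harvest. It was listed for its rise in 2008, where the vineyard means ran from 7.60 (BA) over 8.27 to 10.55 (AM) at veraison, from 9.11 (PSP) over 10.70 to 11.53 (AM) at mid-ripening and from 10.66 (PSP) over 11.68 to 12.80 (AM) at harvest. All 11 vineyards were higher at each step, by 3.12 in all. No harvest value was below the highest veraison value.

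In 2006 AM, CS, MN and PSP went from 9.35, 8.74, 8.43 and 7.88 at veraison over 12.07, 10.42, 10.64 and 10.25 to 12.37, 12.12, 11.31 and 11.35 at harvest. In 2007 they went from 9.91, 8.76, 9.07 and 8.05 over 10.89, 10.07, 8.39 and 7.88 to 11.38, 11.08, 10.56 and 9.43. The mid-ripening values of MN and PSP in 2007 were below their own veraison values, while those of AM and CS were above them. For PSP in 2007 stage and slide cannot be told apart. On shared slides 3 pairs of the other vineyards ran from -0.84 to 1.38 for this step, with 2 higher.

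OPT1 rose to harvest by 3.19 in 2006 (SE 0.20, 9.11-fold, adjusted p = 9.84e-06) and by 1.66 in 2007 (SE 0.32, 3.17-fold, adjusted p = 0.00511), in 4 of 4 vineyards each. Without MN the rise in 2007 was 1.72 (adjusted p = 0.0133). As a difference of changes 2007 stood at -1.56 against the other years (SE 0.29, adjusted p = 0.0215), and the value stayed at -1.53 without MN (adjusted p = 0.113), -1.52 without CS (adjusted p = 0.0643) and -1.51 without PSP (adjusted p = 0.0832), where it did not pass. The course of 2008, for which OPT1 was listed, enters this difference. Like that of PDR12, the probe set of OPT1 was assigned by its 3 printed stage levels and its place on the array. Pairs on shared slides gave rises of 3.20, 3.45 and 1.92 in 2008, 2006 and 2007.

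At mid-ripening OPT1 was lower in 2007 by 1.21 (SE 0.27, adjusted p = 0.0439), and at harvest by 1.21 as well (SE 0.18, adjusted p = 0.0166), in 4 of 4 vineyards each. The study's sugar readings at mid-ripening were also lowest in 2007, and their part in this difference was not tested. The mid-ripening call did not pass without any 1 vineyard, with adjusted p = 0.171 without AM, 0.147 without CS, 0.0799 without MN and 0.104 without PSP. The harvest call did not pass without AM (0.0669), CS (0.144) or MN (0.055). The differences of 2008 against 2006 at these stages did not pass, at -0.65 (SE 0.31, adjusted p = 0.86) and 0.07 (SE 0.21, adjusted p = 0.981).

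OPT7 (VIT_02s0025g02390) and KCTD (VIT_08s0007g01990), both listed for a training system in 2008, changed little with ripening. OPT7 had means of 9.71, 9.55 and 9.84 at the 3 stages of 2008, and its changes to harvest were 0.12 in 2008 (adjusted p = 0.47), 0.15 in 2006 (adjusted p = 0.465) and 0.34 in 2007 (adjusted p = 0.46), where it was 0.25 without MN (adjusted p = 0.708). At veraison in 2007 its vineyards spread widely, from 7.74 in PSP and 8.31 in MN to 9.84 in CS and 9.98 in AM. KCTD fell in 2006 by 0.44 (SE 0.12, adjusted p = 0.0177, 4 of 4 vineyards), a call that did not pass without AM (adjusted p = 0.0703) or MN (adjusted p = 0.0599). Over 2 pairs on shared slides KCTD changed by -0.11 in 2006, with 0 pairs higher. Its changes of 0.02 in 2008 and 0.05 in 2007 did not pass, and that of 2007 was -0.095 without MN.

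**Figure D3:**
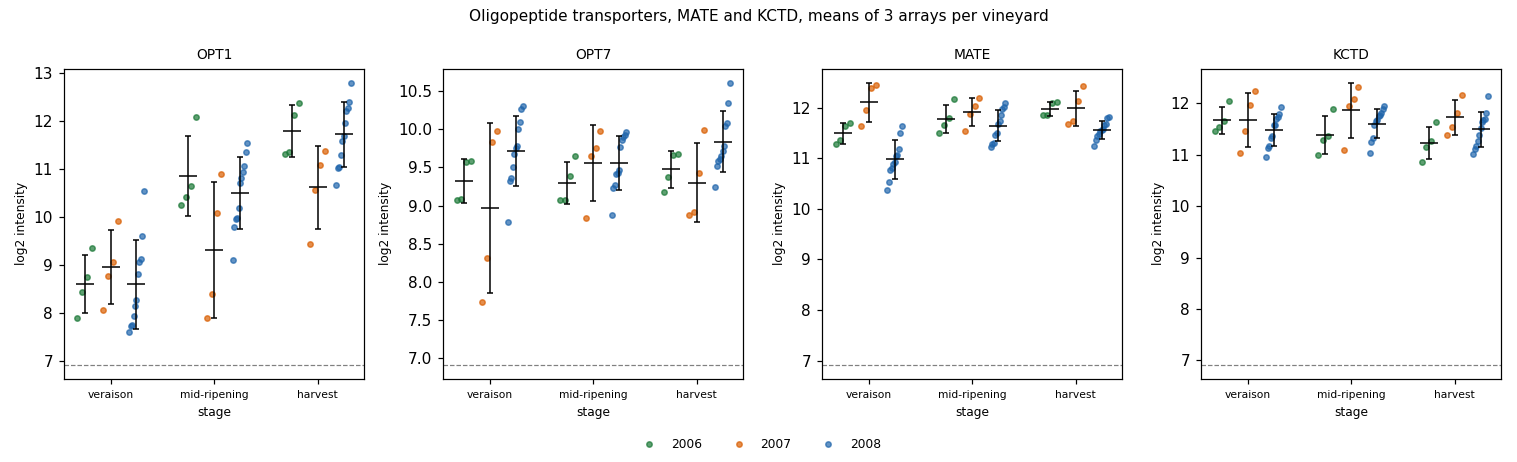
Log2 intensity of OPT1, OPT7, MATE and KCTD by stage (x axis) and year. Each point is the mean of 3 arrays of a vineyard (4 in 2006 and 2007, 11 in 2008), sorted by value within a group, black bars are the mean and SD over vineyards, the dashed line is the background level of 6.91 and the y axes differ; OPT1 climbs with ripening, from 8.59 to 11.72 in the mean of 2008, while OPT7 and KCTD stay near their veraison level.

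The 3 glutamate receptors are relatives of animal glutamate-gated ion channels, which in plants pass calcium in response to amino acids. All were dim. VIT_04s0069g00060 (GLR-060) was above background in 32 of 171 arrays, VIT_04s0069g00530 (GLR-530) in 107 and VIT_19s0014g01830 (GLR-830) in 91. They were listed for a difference between years after division by veraison, so their ripening and year values are descriptions.

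In 2007 all 3 were highest at veraison, with means of 7.04, 8.06 and 7.31, and stood at 6.04, 7.55 and 6.87 at harvest. In 2006 they peaked at mid-ripening, at 6.66, 7.86 and 7.14. Above background at veraison were 6, 8 and 9 of 12 arrays in 2007, against 7, 12 and 10 of 12 in 2006. The veraison means of 2006 were lower, at 6.45, 7.19 and 6.72. The part of the background level in these values was not tested. Over 2 pairs on shared slides in 2007, GLR-530 was higher at harvest by 0.08, with 2 pairs higher. GLR-060 changed by -0.56 and GLR-830 by -0.72 to -1.29, with 0 pairs higher in each. Vineyard PSP in 2007 had the highest veraison value for GLR-060 (8.27) and GLR-530 (8.81), and CS had it for GLR-830 (8.18). The profile of GLR-530 was the loosest match, with a correlation of 0.962 to the printed values. The probes within each set agreed poorly over the arrays. Their median correlation was 0.169 for GLR-060, 0.093 for GLR-530 and 0.163 for GLR-830.

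**Figure D4:**
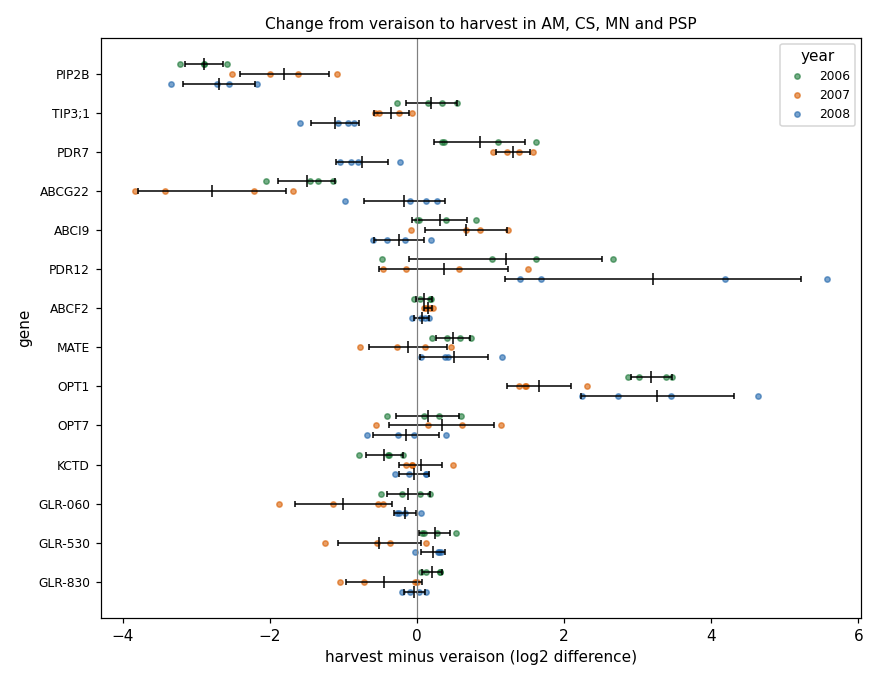
Change from veraison to harvest (x axis, log2 difference) of the 14 genes (y axis) in AM, CS, MN and PSP. Each point is 1 vineyard in 2006, 2007 or 2008, and black bars are the mean and SD over the 4 vineyards; PDR7 lies to the right of 0 in 2006 and 2007 and to the left in 2008, where its mean in these vineyards is -0.75.

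The calls over the set were counted for members that no list had drawn from the same contrast. For ripening and year contrasts, members listed for year differences at veraison were also left out where veraison arrays enter. The counts of vineyards and areas keep them. From veraison to harvest 1 of 4 eligible members passed in 2008 (PDR7, lower), beside 57.3% of all probe sets. In 2006 it was 4 of 8 (PDR7 and OPT1 higher, PIP2B and KCTD lower), beside 46.2%, and in 2007 it was 4 of 8 (PDR7, ABCI9 and OPT1 higher, PIP2B lower), beside 31%. The median change of the eligible members was -0.01, 0.23 and 0.35 in 2008, 2006 and 2007, and that of all probe sets was -0.01, 0.05 and -0.04. The counts of 2006 and 2007 include PIP2B and OPT1, which were listed for a strong course in 2008, so the shares are no result about the members.

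The steps gave fewer calls. Veraison to mid-ripening passed for 1 of 4 members in 2008, 3 of 8 in 2006 and 0 of 8 in 2007, where 2 of 8 had an unadjusted p under 0.05 in limma, beside 46.9%, 33.8% and 9.63% of all probe sets. Mid-ripening to harvest passed for 1 of 7, 1 of 11 and 0 of 11, beside 36.8%, 2.55% and 1.09%. For harvest against mid-ripening in 2007 limma gave 4 of 11 members an unadjusted p under 0.05.

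For the year 2007 against the other years, 2 of 8 eligible members passed at veraison (PDR7 and ABCI9, lower), beside 10.6% of all probe sets. For both genes the veraison values of 2008 were highest and those of 2006 and 2007 overlapped. At mid-ripening 2 of 11 passed (PDR12 and OPT1, lower), beside 4.1%, and at harvest 1 of 11 (OPT1, lower), beside 4.63%. PDR12 and OPT1 were listed for a course in 2008 whose arrays enter these differences. Between 2008 and 2006 the calls were 1 of 8 at veraison (PDR7, higher), beside 3.86%, and 0 of 11 at mid-ripening and at harvest, beside 0.00338% and 0%. At each of these last stages 1 of 11 members had an unadjusted p under 0.05 in limma.

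The change from veraison to harvest differed in 2007 for 3 of 8 members (PIP2B, PDR7 and OPT1), beside 7.03% of all probe sets. None of the 3 passed without MN, where the differences were 0.84, 1.49 and -1.53 against 0.99, 1.25 and -1.56 with it, and none passed without CS or without PSP. PIP2B also did not pass without replicate A (adjusted p = 0.0653) or C (adjusted p = 0.0615). The direction of each was the same in 4 of 4 vineyards. For PDR7 the changes ran from 0.34 to 1.61 in 2006, from 1.03 to 1.58 in 2007 and from -1.05 to -0.23 in 2008. The changes of 2006 and 2007 thus overlapped, and the fall of 2008 enters the PDR7 difference. At veraison the median of all probe sets was 0.11 higher in 2007. Among the arrays of these 4 vineyards only 1 slide at each stage held more than 1 year, so no comparison of years within slides was made.

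Across the 11 vineyards of 2008 the F test passed for 5 of 9 eligible members, OPT1, ABCG22, PIP2B, GLR-830 and GLR-530, beside 39.3% of all probe sets. This test takes the 3 stages of a vineyard as its replicates. From these same arrays the study had listed OPT1, PIP2B and PDR12 as ripening markers, whose course it describes as alike in all vineyards. The count keeps them, and for them the test is not independent of that list. ABCG22 was listed for a year difference at veraison, and some of the veraison arrays behind that list enter this test. Its call is therefore not independent of its list either. OPT1 had the strongest call (adjusted p = 0.00183). Its mean departure from the average of 11 vineyards ran from -1.03 in PSP to 1.36 in AM, and AM was above that average at every stage, by 1.04 to 1.95. GIV was high as well, at 0.81, and BA low, at -0.80. All AM arrays of 2008 lay on 1 slide, so vineyard and slide cannot be told apart for AM.

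ABCG22 (adjusted p = 0.00625) was highest in BA, at 0.72, MN, at 0.64, and BM, at 0.60, and lowest in PM, at -0.92. PIP2B (adjusted p = 0.0189) was highest in MN, at 0.89, and lowest in GIV, at -0.78, and PM, at -0.71. The vineyards were closest for PIP2B at veraison, with an SD of 0.23, against 0.80 at mid-ripening and 0.69 at harvest. Without MN the adjusted p of PIP2B was 0.0627.

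The dim receptors GLR-830 (adjusted p = 0.0204) and GLR-530 (adjusted p = 0.0457) were highest in MN, at 0.59 and 0.36, and BM, at 0.47 and 0.46. GLR-830 was lowest in CC, at -0.55, and so was GLR-530, at -0.28. GLR-530 did not pass without AM, BA, BM, CC, GIV, MN, PSP or VM, with adjusted p from 0.0591 to 0.154, and GLR-830 did not pass without CC (0.0522) or MN (0.0787), nor without replicate C (0.211). With the slide as a random block the adjusted p was 0.177 for GLR-830 and 0.208 for GLR-530. The probes of both sets agreed poorly (median correlations of 0.163 and 0.093), so these calls are weak evidence about the genes.

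For the members that had been listed for vineyard, area or training differences, the mean departures are descriptions. They ran from -0.45 to 0.70 for PDR7, from -0.45 to 0.41 for ABCI9, from -0.55 to 0.40 for OPT7, from -0.49 to 0.26 for KCTD and from -0.06 to 0.07 for ABCF2. Over 33 means of vineyard and stage, the departures of GLR-530 and GLR-830 correlated at 0.653 and those of OPT7 and KCTD at 0.631. The 3 means of a vineyard are not independent, so these values carry no test.

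**Figure D5:**
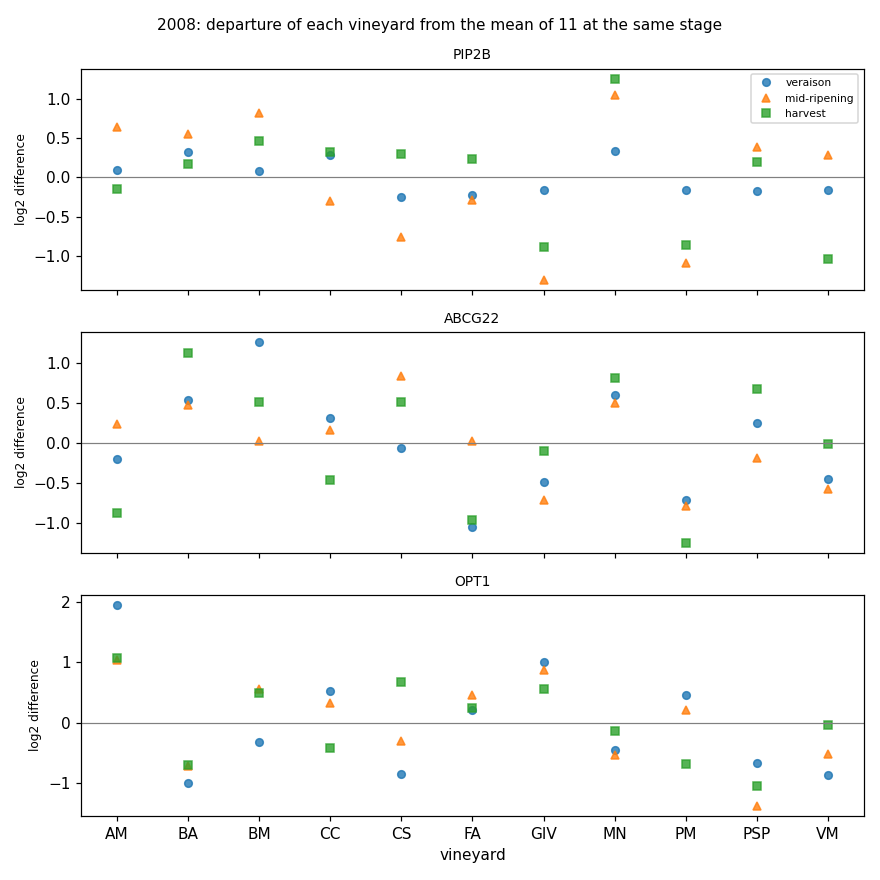
Departure of each of the 11 vineyards (x axis) from their mean at the same stage in 2008 (y axis, log2 difference) for PIP2B, ABCG22 and OPT1. Symbols are the means of 3 arrays at veraison, mid-ripening and harvest; AM lies above 0 for OPT1 at all stages, and the PIP2B values of veraison lie closest together.

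The 3 macro-areas gave no call, with 0 of 9 eligible members and 0% of all probe sets. By limma 1 of 9 members had an unadjusted p under 0.05. This was GLR-530 (adjusted p = 0.551), with mean levels of 6.84 in Bardolino, 6.75 in Soave and 7.22 in Valpolicella. PDR7, which had been listed for this difference, had means of 10.03, 10.64 and 10.04. Its lowest Soave vineyard was at 10.48 and its highest vineyard elsewhere at 10.34, so these groups did not overlap. OPT1 had means of 10.11, 10.77 and 10.05 with overlapping vineyards.

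Of the 4 vineyards sampled in 3 years, AM had the highest OPT1 and the highest PDR7 in 9 of 9 combinations of year and stage, and the lowest OPT1 was that of PSP in 7 of 9. AM had the highest ABCF2 in 7 of 9 and the highest TIP3;1 in 6 of 9. TIP3;1 was above background in 19 of 171 arrays, so its rank is mostly one of background values. ABCI9 was lowest in CS in 7 of 9 and ABCG22 lowest in PSP in 6 of 9. These ranks are a description, and the arrays of AM lay on 1 slide in 2007, on 1 in 2008 and on 2 in 2006, and the part of the slide in these ranks was not tested.

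Genes of other transporter classes in the same lists were taken as a comparison set of 35, of which 32 were found. From veraison to harvest 3 of 10 eligible genes passed in 2008, all lower, beside 57.3% of all probe sets. In 2006 it was 11 of 18 (5 higher, 6 lower), beside 46.2%, and in 2007 it was 6 of 18 (4 higher, 2 lower), beside 31%. The largest called differences in each direction are given. In 2008 the metal cation efflux gene MTPc3 (VIT_08s0007g06760) fell by 0.81 (adjusted p = 2.67e-05) and a soluble ABC protein annotated non-intrinsic 12 (VIT_13s0019g04600) by 0.69 (adjusted p = 2.61e-05).

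In 2006 the sulfate transporter 3.1 (VIT_05s0020g03970) fell by 4.29 (adjusted p = 3.95e-05) and the cation exchanger CAX7 (VIT_06s0009g01110) by 4.00 (adjusted p = 1.53e-05). Auxin transporter protein 2 (VIT_03s0038g02140), named for the hormone auxin, rose by 3.73 (adjusted p = 1.87e-05) and the cation/hydrogen exchanger CHX18 (VIT_02s0025g00810) by 1.50 (adjusted p = 0.000412). In 2007 CAX7 fell by 4.17 (adjusted p = 0.000141) and sulfate transporter 3.1 by 1.86 (adjusted p = 0.0287), while auxin transporter protein 2 rose by 2.98 (adjusted p = 0.000586) and CHX18 by 1.11 (adjusted p = 0.000907). These 4 genes had been listed for their course in 2008, so their large changes are not independent of that choice.

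For the ripening change of 2007 against the other years 4 of 18 of these genes passed, 3 higher and 1 lower, beside 7.03% of all probe sets. Sulfate transporter 3.1 was at 2.49 (adjusted p = 0.0246) and MTPc3 at 1.26 (adjusted p = 0.011), and CHX18 was at -1.06 (adjusted p = 0.0405).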

How the data were processed

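Berry RNA was measured on single-colour NimbleGen arrays in 171 samples, and the number of arrays limits the precision. The authors deposited 1 table of linear intensity values per probe, quantile normalized over all arrays, and RMA is named in the submitters' processing notes. Probes of a set (4 for most sets) were averaged and the log2 of the mean was taken, with a pseudocount of 0. The table names no genes, and a probe set received a gene name if its course over the arrays correlated at 0.95 or more with values printed in the supplementary lists of the study. This gave 11 of the 14 genes, and PIP2B, PDR12 and OPT1 were matched by their 3 stage levels within 0.3 log2. For PDR12 and OPT1, and for some genes of the comparison set, more than 1 set lay within that range, and the one near the locus on the array was taken, a rule adopted after values were seen. In 33 printed columns the values belonged to another sample than the column heading, and the matched sample was used. The printed values served only for this matching. There were 0 other columns of per-sample values.

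Vineyard means of the 3 replicate arrays were compared with limma 3.58.1 (R 4.3.3) over all 29545 probe sets, with the vineyard as a fixed block for stages and years, and p-values were adjusted by Benjamini-Hochberg over all sets, with calls at 0.05. Every gene that the words found and that encodes a channel or transporter was named, and of the comparison set those with the largest called difference in each direction. The members and lists were chosen with earlier results of these data known. Where a list had been drawn from a contrast, the values of its members there are a description. Genes listed for year differences at veraison were, by a choice made after the values were seen, left out of the counts for every ripening or year contrast with veraison arrays. They stayed in the counts of vineyards and areas, which also use the veraison arrays of 2008. Training systems were not compared. The sample labels do not give them, although the study's description of the vineyards does. With the fits tested on simulated data with 200 changed sets among 29545, 82.5% of changes of 1 log2 were recovered for harvest against veraison in 2008 and 13.5% in 2006. For the change of 2007 against the other years 0% of changes of 1 and 73% of changes of 2 were recovered. The simulation drew the vineyard spread anew for each year and stage, so the vineyard block removed none of it. Many more sets were called in these contrasts of the real data than were changed in the simulation. The shares are therefore not the recovery of the real tests. The alternatives were other summaries of the probes, 50 added to the intensity, a second quantile normalization, a filter on dim sets, leaving out replicates or vineyards, blocks for replicate or slide (statmod 1.5.0), and a stricter match. Figures were drawn with matplotlib 3.10.9.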

Additional observations from a re-analysis of the deposited data

Results flagged for a closer look

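Among 84 groups of 4 vineyard means, 3 held a vineyard far from the others, and chance gives about 1 in 20. TIP3;1 at harvest of 2007 was at 5.49 in MN against 6.16 in each of the other vineyards, at levels around or below the random probes. PDR7 at harvest of 2007 was at 10.35 in AM against 9.11 to 9.17 elsewhere. GLR-060 at veraison of 2006 was at 5.98 in MN against 6.58 to 6.62.

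The change from veraison to harvest differed between 2007 and the mean of 2006 and 2008 by 0.99 for PIP2B, 1.25 for PDR7 and -1.56 for OPT1 (limma, adjusted p = 0.0368, 0.0179 and 0.0215). Each had the same direction in 4 of 4 vineyards. Without MN the differences were 0.84, 1.49 and -1.53, and none passed. For ABCG22 the value was -1.95, a description because the gene was listed on the veraison arrays that enter it. PDR7 rose in all 4 vineyards in 2006 and in 2007 and was lower at harvest in all 4 in 2008. The changes exceeded that of 2008 by 1.60 in 2006 and by 2.05 in 2007, and these differences were not tested.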

How the results depend on the processing

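No alternative reversed the direction of a called value. Counts of called members moved as follows, each beside its own main count. Median polish of the probes gave 2 for mid-ripening against veraison in 2008 (main 1) and in 2007 (0), and for harvest against mid-ripening 0 in 2008 (1), 2 in 2006 (1) and 1 in 2007 (0). The median of log2 probes gave the same 5 counts, and 0 for 2008 against 2006 at veraison (1). Adding 50 gave 2 for harvest against mid-ripening in 2006, for 2008 against 2006 at veraison and for 2007 at harvest (1 each), and 1 for mid-ripening against veraison in 2007. A second quantile normalization gave 1 for this last contrast. The filter on dim sets gave 2 for harvest against mid-ripening in 2006 and for 2008 against 2006 at veraison, 1 for mid-ripening against veraison in 2007 and 3 for vineyards (5). The stricter match, which keeps 8 of the profile matches, gave 2 for harvest against veraison in 2006 (4) and in 2007 (4), 0 for mid-ripening against veraison (3) and for harvest against mid-ripening (1) in 2006, 0 for 2007 at mid-ripening (2) and at harvest (1), 1 for the change of 2007 (3) and 1 for vineyards. The cause of these shifts was not tested, except that the stricter match leaves fewer members.

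Leaving out 1 replicate letter or 1 vineyard gave 1 to 1 calls for harvest against veraison in 2008, 1 to 1 for mid-ripening against veraison and 0 to 2 for harvest against mid-ripening. In 2006 these ranges were 2 to 5, 2 to 3 and 0 to 2, and in 2007 they were 2 to 4, 0 to 1 and 0 to 0. For 2007 against the other years they were 1 to 2, 0 to 2 and 0 to 1 at the 3 stages, and for 2008 against 2006 they were 0 to 1, 0 to 0 and 0 to 0. The change of 2007 gave 0 to 3, vineyards 2 to 5 and areas 0 to 0.

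Replicate letters did not pair the arrays: the deviations of same-lettered arrays of different stages had a median correlation of 0.008 over 171 pairs (51 above 0.1), and those of different years 0.016 over 108 pairs. With arrays in place of vineyard means and the replicate block, the counts were 2 for harvest against mid-ripening in 2008, 6 for mid-ripening against veraison and 3 for harvest against mid-ripening in 2006, 3 and 5 for these in 2007, 4, 7 and 7 for 2007 at the 3 stages, 3, 3 and 2 for 2008 against 2006, 5 for the change of 2007, 9 for vineyards and 4 for areas. With arrays and the slide as a random block they were 2 for harvest against mid-ripening in 2008, 8, 6 and 5 for the 3 contrasts of 2006, 3 and 5 for mid-ripening against veraison and harvest against mid-ripening in 2007, 4, 6 and 3 for 2007 at the 3 stages, and 3 and 1 for 2008 against 2006 at veraison and harvest. In both of these fits the arrays of a vineyard count as separate samples. The areas were not run with the slide block. Over all probe sets the same 2 fits called 16348 and 14599 sets for harvest against veraison in 2007, where vineyard means called 9150.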

Other observations

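The 7 genes caught only by the letters "mate" are enzymes or developmental genes, and 6 were found. They were above background in 95.3% to 100% of arrays. From veraison to harvest 2 of 5 eligible genes fell in 2006 (beside 46.2% of all probe sets called), shikimate dehydrogenase (VIT_05s0020g02030) and EDA6/MEE37 (VIT_05s0049g01430), and 1 of 5 fell in 2007 (beside 31%), shikimate dehydrogenase.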
